A study of Mus musculus with 6 samples.

Results

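Pituitary transcripts of 42 genes that build the mitotic machinery were followed in female mice lacking Jmjd2a (KO) and in their wild-type littermates (WT). The genes were taken from a named list of mitosis, spindle and kinetochore genes, and every non-control probe of the array whose annotation is a RefSeq transcript of one of them was included. All 42 genes were found, on 60 of the 55681 probes, out of 20972 genes that the array names in this way. RNA of whole pituitaries from 3 KO animals (genotype Jmjd2a-/-) and 3 WT animals (Jmjd2a+/+) was hybridised to 6 one-colour Agilent arrays. All were virgin females aged 8 weeks on a C57BL6 background, killed 24 h after their oestrous cycle had been activated with soiled bedding of a stud male (the Whitten effect). Jmjd2a, now named Kdm4a, encodes a demethylase of histone H3 lysines. Neither the labels nor the files used here say which part of Jmjd2a was deleted or what cycle stage each animal had reached.

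A dividing cell switches on mitotic genes late in its cycle and silences them again after division, so in an adult tissue their transcripts come from the small fraction of cells between S phase and the end of division. Cyclins A and B with Cdk1 drive entry into mitosis, Aurora kinases and the chromosomal passenger complex correct attachments to the spindle, kinetochores carry the chromosomes, and the anaphase-promoting complex ends the process by degrading cyclins and securin. In the pituitary of adult females, hormone cells and stem cells divide slowly, and oestrogen is known to stimulate division of lactotropes, the prolactin cells. Since whole glands were measured, fewer dividing cells and less mitotic RNA per dividing cell cannot be told apart.

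Values below are log2 of the spot signal relative to the 75th percentile of the same array, so that a difference of 1 is a factor of 2, and a higher number is a brighter probe. Levels are compared only within a probe. Log2 fold changes are KO over WT with the standard error from limma, n = 3 arrays per group, each array from a separate animal. Limma's moderated test ran over the 36742 probes that were well above background on at least 3 arrays, and adjusted p is Benjamini-Hochberg over all of them. Each gene is represented by its brightest tested probe. Of the 42 genes, 33 were tested, 29 of them by a probe well above background on all 6 arrays. The other 4, Top2a, Nek2, Kif4 and Aspm, passed with more WT than KO arrays above background, so a difference in them was in part a condition of being tested. The remaining 9 genes were too dim and are described separately.

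The arrays were hybridised on 1 slide. Between 34637 and 40570 probes lay well above background per array, the 75th percentile of the signal ran from 158 to 286 intensity units, and the number of arrays limits the precision of every value. Marker genes of all hormone cell classes of the gland (5 of 5 for lactotropes and somatotropes, 5 of 5 for gonadotropes, 6 of 6 for corticotropes and melanotropes, 3 of 3 for thyrotropes) were above background on every array. The targeted gene Kdm4a read 1.59, 1.35 and 1.51 on the KO arrays, against 2.25, 2.03 and 1.99 on the WT arrays by its tested probe, a log2 fold change of -0.61 ± 0.14 (limma adjusted p = 0.275), with all KO arrays below all WT arrays. A second, dimmer probe of Kdm4a cleared background on 1 array of each group and was not tested. A probe outside the deleted part checks nothing about the genotype. WT replicate 3 stood apart in transcripts of other cells. Of 9 tested neutrophil markers, 7 were highest on it, and the summed level of the list was 2.52 to 2.53 on the KO arrays, against 2.86 to 4.41 on the WT arrays, with Mmp9 above background on no array. Of 10 Schwann cell markers, 7 were also highest there (summed level 4.02 to 4.13 on KO arrays and 3.84 to 4.68 on WT arrays). Fold changes of the mitotic genes by their brightest probe are therefore also given without that array.

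Mitotic transcripts read lower in KO pituitaries in every role group of the machinery, and none of the genes passed the test over all probes. All 33 tested genes had log2 fold changes below 0, from -2.57 to -0.10 with a median of -1.23, against a median of -0.06 over all probes tested, of which 59.2% were below 0. The corresponding KO signal was 16.9% to 93.5% of the WT signal. Limma called 0 of the 33 at an adjusted p under 0.05 (lowest 0.265), as it called 0 of all probes (0% of 36742). At an unadjusted p under 0.05, 22 of the 33 were lower and 0 higher in KO, where 7.98% of all probes were lower and 4.03% higher. The 22 include Top2a, Nek2, Kif4 and Aspm. Of the 29 genes above background on all 6 arrays, 18 were lower at that threshold (8.14% of all such probes), with a median of -1.17 (all such probes -0.05). In 21 of the 33 the KO and WT arrays did not overlap, all lower in KO, compared with 12.2% of all probes without overlap and lower in KO. These 21 include Top2a, Nek2 and Kif4. Of the 29 genes above background on all 6 arrays, 18 did not overlap. With 3 arrays against 3, an exact two-sided permutation test of any single gene cannot go below p = 0.1. A log2 fold change of -1 or less was seen in 21 genes, with Top2a, Nek2, Kif4 and Aspm among them, and in 1.74% of all probes.

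**Figure D1:**
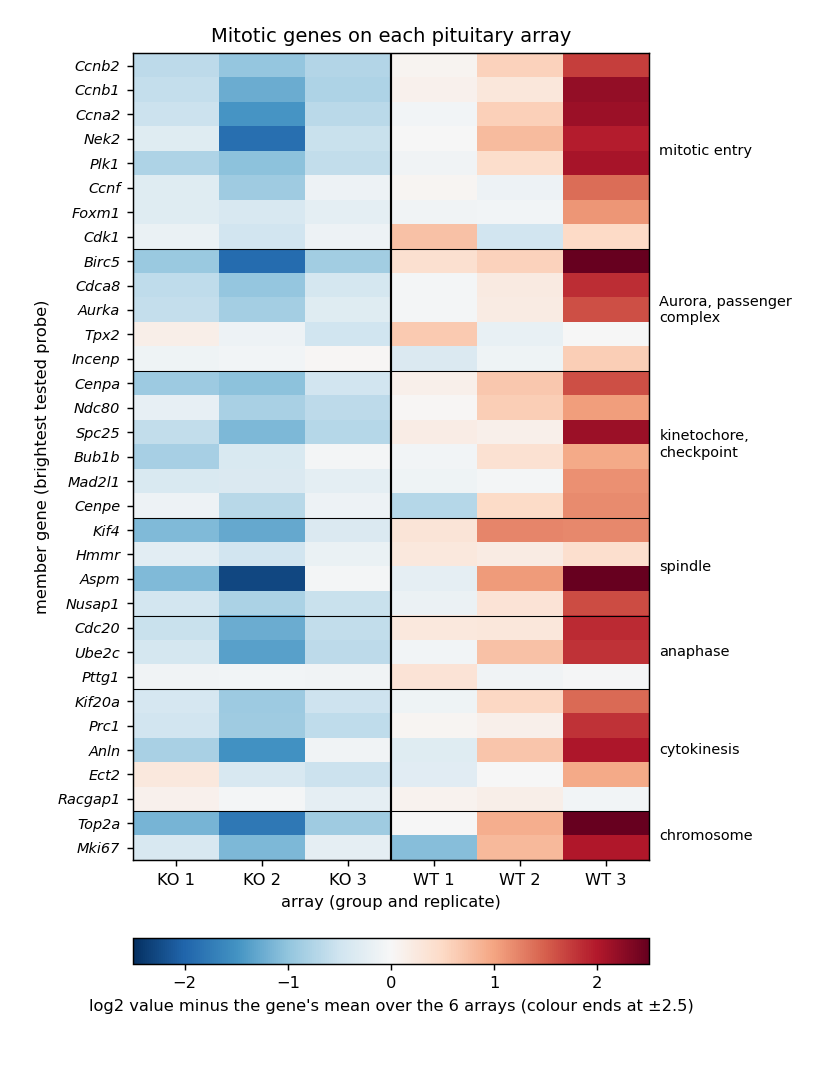
Each cell is the log2 value of 1 mitotic gene (rows, grouped by role) on 1 array (columns, KO left of WT), minus the mean of that gene over the 6 arrays, with red above and blue below that mean. The 3 KO columns are mostly blue, WT replicate 3 is the reddest column, and the rows of Racgap1 and Pttg1 are the palest.

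The same arrays were highest and lowest for most of the genes. WT replicate 3 was the highest array for 28 of the 33 genes, while it was the highest for 19.7% of all probes. KO replicate 2 was the lowest for 24 of the 33, against 13.3% of all probes. WT replicate 3 lay above the mean of the other WT arrays by a median of 1.43 (log2). The KO arrays were the more alike: the median range over the 3 KO arrays was 0.57, against 1.65 over the 3 WT arrays, and the WT range was the wider in 30 of the 33 genes and in 69.2% of all probes. Over all probes the median ranges were 0.29 among KO and 0.44 among WT arrays. Every KO array read below WT replicate 1 in 25 of the 33 genes, below WT replicate 2 in 27 and below WT replicate 3 in 31, where the shares over all probes were 39.7%, 37.7% and 37.1%.

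Without WT replicate 3 the differences were smaller. The median of the 33 genes was -0.77 (all probes -0.07), with 32 below 0 and 32 below that median of all probes. At an unadjusted p under 0.05, 19 were lower (8.9% of all probes). These 19 were all among the 22 found with every array, and limma's lowest adjusted p was 0.243. Fold changes of -1 or less remained in 11 genes in place of 21, and the share of all probes was not counted without that array. The neutrophil and Schwann cell transcripts of that array moved with the high mitotic values, and their part in the result was not tested. Within slide row 1, which held KO replicates 1 and 3 and WT replicates 1 and 3, the median was -1.26 and 12 genes were lower at an unadjusted p under 0.05 (7.7% of all probes). Slide row 2 held 1 array of each group, without a test, and gave a median of -1.25 with 29 of the 33 below 0.

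**Figure D2:**
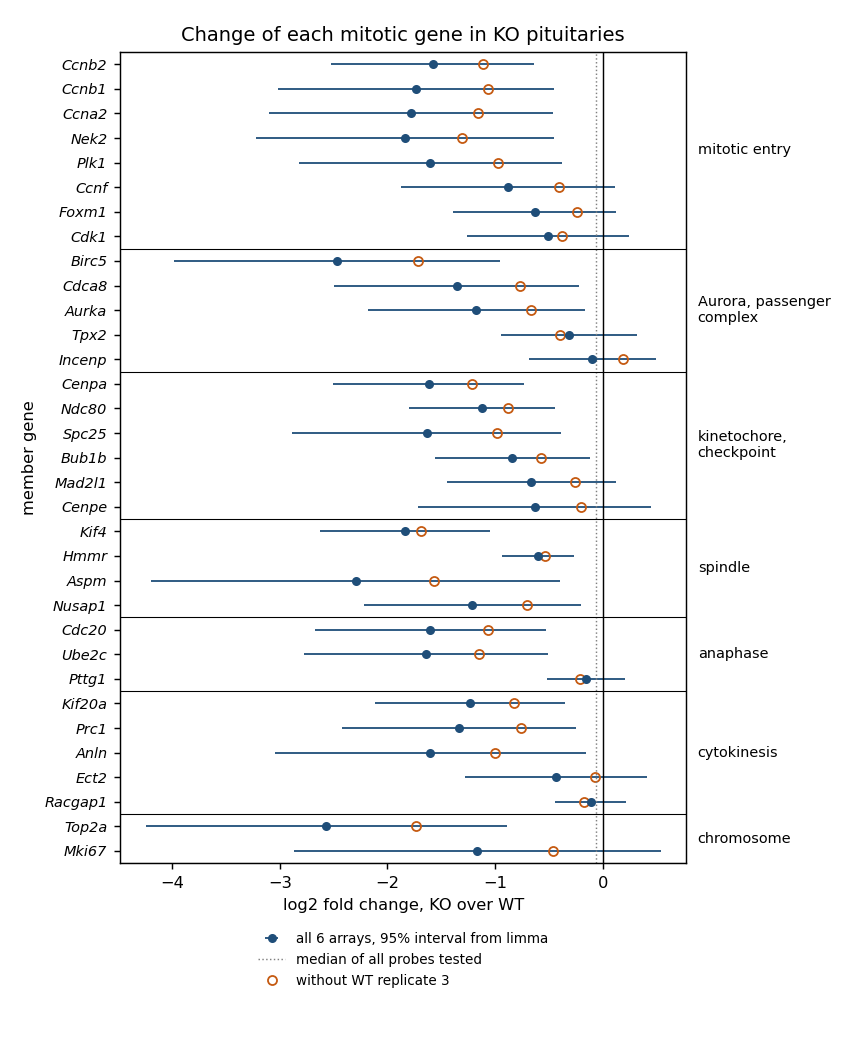
Filled points are log2 fold changes of KO over WT for the 33 tested mitotic genes with 95% intervals from limma, open points leave out WT replicate 3, and the dotted line is the median of all probes tested. All filled points lie left of 0, and the open points lie closer to 0 for 29 of the 33 genes.

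By their brightest probes, the A and B cyclins of mitotic entry were lower on every KO array than on any WT array. Ccnb2, which encodes cyclin B2, a partner of Cdk1 at mitotic entry, read -1.01, -1.33 and -1.10 on the KO arrays, against -0.30, 0.22 and 1.37 on the WT arrays. The log2 fold change was -1.58 ± 0.40 (limma adjusted p = 0.305), -1.11 without WT replicate 3 and -1.12 with normexp background correction. Every KO array lay below every WT array, and WT replicate 3 was the highest. Ccnb1, the gene of cyclin B1, had values of -2.81, -3.46 and -2.99 on the KO arrays, against -2.11, -1.93 and -0.02 on the WT arrays. Its log2 fold change was -1.73 ± 0.54 (limma adjusted p = 0.352), again without overlap, and -1.07 without WT replicate 3, while normexp gave -0.84. A dimmer tested probe of Ccnb1 gave -1.51 ± 0.63 with overlap between the groups, and -0.87 without WT replicate 3. That probe was well above background on 1 KO and 2 WT arrays. Ccna2, encoding cyclin A2, which acts in S phase and early mitosis, stood at -2.04, -2.97 and -2.18 on the KO arrays, against -1.57, -0.91 and 0.63 on the WT arrays. The groups did not overlap, with a log2 fold change of -1.78 ± 0.56 (limma adjusted p = 0.352; -1.16 without WT replicate 3). The kinase gene Plk1 and the centrosomal kinase gene Nek2 showed log2 fold changes of -1.60 ± 0.51 and -1.83 ± 0.58, both without overlap (-0.97 and -1.31 without WT replicate 3). Nek2 was well above background on 2 KO arrays and all WT arrays.

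Cdk1, the kinase that these cyclins activate, was the mitotic entry gene nearest to no change by its brightest probe. That probe read -2.92, -3.22 and -2.87 on the KO arrays, against -2.02, -3.23 and -2.25 on the WT arrays. KO and WT overlapped, since WT replicate 2 was as low as the lowest KO array, and the log2 fold change was -0.51 ± 0.32 (limma adjusted p = 0.53; -0.38 without WT replicate 3). A dimmer probe of the same gene went further, with -3.84, -6.05 and -4.80 on the KO arrays, against -3.44, -2.87 and -0.78 on the WT arrays. That probe gave a log2 fold change of -2.53 ± 0.79 without overlap, -1.73 without WT replicate 3 and -0.78 with normexp, and its array order matched that of the cyclins. It was well above background on 2 KO arrays and all WT arrays, so a difference in it was in part a condition of being tested. Foxm1, the transcription factor that activates many genes of this group, had a log2 fold change of -0.63 ± 0.32 (-0.24 without WT replicate 3) by its brighter probe, without overlap, while the groups overlapped by its other probe (limma adjusted p = 0.998). Ccnf, encoding cyclin F, was at -0.88 ± 0.42 (-0.40 without WT replicate 3). In this role group 5 of the 8 tested genes, Nek2 among them, were lower at an unadjusted p under 0.05 (7.98% of all probes), and 5 without WT replicate 3 (8.9%).

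Among the Aurora kinases and the chromosomal passenger complex, Birc5 had the widest difference of the group. It encodes survivin, the subunit that brings the complex to centromeres, and it read -1.08, -2.07 and -1.01 on the KO arrays, against 0.25, 0.42 and 2.59 on the WT arrays. All KO arrays were below 0 and all WT arrays above it, and the log2 fold change was -2.47 ± 0.64 (limma adjusted p = 0.31), -1.72 without WT replicate 3 and -1.91 with normexp. Of its other probes, one had a log2 fold change of -1.71 ± 0.47 (-1.14 without WT replicate 3). The dimmest was tested only because it was well above background on all WT arrays, as it was on no KO array. In the main processing it was at least 5.48-fold lower in KO (limma adjusted p = 0.267). The bound holds for that processing only, as the probe gave a log2 fold change of -0.76 with normexp. Such a bound sets the WT mean against the KO mean. Each KO value under the lowest signal counted as above background on its array was first raised to that signal.

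Cdca8, which encodes borealin of the same complex, had values of -1.07, -1.41 and -0.87 on the KO arrays, against -0.48, -0.21 and 1.42 on the WT arrays. By this probe the groups did not overlap, at a log2 fold change of -1.36 ± 0.48 (limma adjusted p = 0.373), and -0.77 without WT replicate 3. A dimmer probe of Cdca8 gave -1.48 ± 0.53 with overlap, and -1.01 without WT replicate 3. That probe was well above background on 2 KO arrays and all WT arrays. Aurka, encoding the spindle-pole kinase Aurora A, read -1.57, -1.83 and -1.28 on the KO arrays, against -1.01, -0.77 and 0.63 on the WT arrays. KO was below WT on every array here too, with a log2 fold change of -1.17 ± 0.42 (-0.66 without WT replicate 3). Incenp, the scaffold of the complex, behaved otherwise, with 1.42, 1.46 and 1.55 on the KO arrays, against 1.16, 1.42 and 2.13 on the WT arrays. The groups overlapped, only WT replicate 3 stood above the KO arrays, and the log2 fold change was -0.10 ± 0.25, which turned to 0.19 without that array and to 0.07 with median centring. For Tpx2, the activator of Aurora A, the brighter probe gave -0.31 ± 0.27 (-0.39 without WT replicate 3). The dimmer probe of Tpx2 gave -2.05 ± 0.75 (-1.55 without WT replicate 3 and -0.68 with normexp). It was well above background on 2 KO arrays and all WT arrays, and its lowest array was KO replicate 2 at -5.76. A disagreement of more than a log2 unit between probes was seen in Tpx2, Cdk1 and Birc5, 3 of the 12 genes with several tested probes.

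Kinetochore genes also read lower in KO. Cenpa, which encodes the histone H3 variant that marks the centromere, read -3.28, -3.40 and -2.84 on the KO arrays, against -2.24, -1.68 and -0.75 on the WT arrays. The groups were clear of each other, with a log2 fold change of -1.62 ± 0.37 (limma adjusted p = 0.277), -1.21 without WT replicate 3 and -0.81 with normexp. Ndc80 and Spc25 encode subunits of the complex that grips spindle microtubules. Ndc80 had -3.67, -4.27 and -4.11 on the KO arrays, against -3.43, -2.84 and -2.41 on the WT arrays, a log2 fold change of -1.12 ± 0.29 (-0.88 without WT replicate 3 and -0.44 with normexp). Spc25 had -0.06, -0.56 and -0.16 on the KO arrays, against 0.75, 0.69 and 2.69 on the WT arrays, a log2 fold change of -1.64 ± 0.53 (-0.98 without WT replicate 3). In both genes the KO arrays lay below all WT arrays, and WT replicate 3 was the highest.

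The spindle checkpoint, which delays anaphase until chromosomes are attached, was represented by Bub1b at -0.84 ± 0.30 and Mad2l1 at -0.66 ± 0.33. Without WT replicate 3 they were -0.57 and -0.26, and Bub1b no longer had an unadjusted p under 0.05. The other probes of Mad2l1 gave -0.15 ± 0.19 and -0.25 ± 0.23, both with overlap. Cenpe, a kinetochore motor, was nearest to no change among the kinetochore genes, with -2.08, -2.64 and -2.07 on the KO arrays, against -2.66, -1.47 and -0.77 on the WT arrays. WT replicate 1 was lower than every KO array, so the groups overlapped, and the log2 fold change was -0.63 ± 0.46 (limma adjusted p = 0.574; -0.20 without WT replicate 3). Of the 6 kinetochore and checkpoint genes tested, 4 were lower and 0 higher at an unadjusted p under 0.05 (7.98% and 4.03% of all probes), and 3 were lower without WT replicate 3 (8.9%).

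All 4 tested spindle genes were lower at an unadjusted p under 0.05 (7.98% of all probes), and 3 without WT replicate 3 (8.9%), with Aspm lost. Kif4 and Aspm were tested because of their WT arrays. Kif4, a motor that binds chromosome arms, read -5.12, -5.30 and -4.37 on the KO arrays, against -3.69, -2.78 and -2.81 on the WT arrays. A single KO array was well above background, the groups did not overlap, and the log2 fold change was -1.83 ± 0.33 (limma adjusted p = 0.265). Without WT replicate 3 it was -1.69, and WT replicates 2 and 3 were its highest arrays at nearly the same level. It was -0.50 with normexp. Hmmr, whose product binds hyaluronan and spindle microtubules, had a small but tight difference, with -1.96, -2.18 and -1.86 on the KO arrays, against -1.44, -1.50 and -1.27 on the WT arrays. The log2 fold change was -0.60 ± 0.14 (limma adjusted p = 0.283) and -0.53 without WT replicate 3, and all 3 WT arrays were close together. Aspm, which acts at spindle poles, read -5.63, -6.81 and -4.57 on the KO arrays, against -4.74, -3.47 and -1.92 on the WT arrays. Only 1 KO and 2 WT arrays were well above background for Aspm, so most of its KO values are not well above background. Its log2 fold change was -2.30 ± 0.80, with overlap between KO replicate 3 and WT replicate 1. It was -1.57 without WT replicate 3 (no longer at an unadjusted p under 0.05) and -0.65 with normexp. Nusap1, a microtubule bundling protein, was at -1.21 ± 0.42, without overlap, and -0.70 without WT replicate 3.

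At anaphase, the activator and the ubiquitin-conjugating enzyme of the anaphase-promoting complex were lower together. Cdc20, the activator, read -0.86, -1.54 and -0.93 on the KO arrays, against -0.05, -0.04 and 1.56 on the WT arrays. Ube2c, the enzyme, read -1.73, -2.64 and -1.95 on the KO arrays, against -1.35, -0.56 and 0.53 on the WT arrays. In neither did KO and WT overlap, with log2 fold changes of -1.60 ± 0.45 for Cdc20 (limma adjusted p = 0.335) and -1.65 ± 0.48 for Ube2c (limma adjusted p = 0.337). Without WT replicate 3 they were -1.07 and -1.15. Pttg1, which encodes securin, the inhibitor of chromatid separation first isolated from a pituitary tumour line, was nearest to no change here, with 3.81, 3.82 and 3.81 on the KO arrays, against 4.24, 3.81 and 3.85 on the WT arrays. The groups overlapped, WT replicate 1 was the highest array, and the log2 fold change of -0.15 ± 0.15 had a 95% interval of -0.51 to 0.21 (0.01 with median centring and -0.21 without WT replicate 3).

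Of the genes for the central spindle and cytokinesis, 3 of the 5 tested were lower at an unadjusted p under 0.05 (7.98% of all probes), and 2 without WT replicate 3 (8.9%). Kif20a, a motor of the midzone, read -1.80, -2.28 and -1.89 on the KO arrays, against -1.48, -0.85 and 0.05 on the WT arrays. Prc1, which cross-links midzone microtubules, read -0.72, -1.13 and -0.89 on the KO arrays, against -0.19, -0.11 and 1.57 on the WT arrays. Both were without overlap, at log2 fold changes of -1.23 ± 0.37 and -1.33 ± 0.46 (-0.83 and -0.76 without WT replicate 3). Anln, encoding the cleavage furrow protein anillin, had -3.15, -3.86 and -2.43 on the KO arrays, against -2.64, -1.66 and -0.33 on the WT arrays. KO replicate 3 overlapped WT replicate 1, and the log2 fold change was -1.60 ± 0.61. Without WT replicate 3 it was -0.996 and no longer had an unadjusted p under 0.05. The regulators of the small GTPase RhoA were closer to 0. Ect2, the exchange factor, was at -0.44 ± 0.36, and -0.07 without WT replicate 3. Racgap1, its partner, read 2.43, 2.28 and 2.10 on the KO arrays, against 2.41, 2.47 and 2.27 on the WT arrays with groups that overlapped, a log2 fold change of -0.11 ± 0.14 with a 95% interval of -0.44 to 0.22, -0.17 without WT replicate 3 and 0.05 with median centring.

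The 2 genes of chromosome structure, both in wide use as marks of dividing cells, differed in how WT replicate 1 behaved. Top2a encodes the topoisomerase that untangles sister chromatids, and it read -4.53, -5.15 and -4.25 on the KO arrays, against -3.38, -2.45 and -0.41 on the WT arrays. It was well above background on 2 KO arrays and all WT arrays. No KO array reached a WT array, and the log2 fold change was -2.57 ± 0.71 (limma adjusted p = 0.329), -1.73 without WT replicate 3, -0.99 after normexp and -0.82 in the value table that the authors deposited. Mki67, the gene of the proliferation antigen Ki-67, read -1.72, -2.46 and -1.55 on the KO arrays, against -2.39, -0.51 and 0.67 on the WT arrays. WT replicate 1 lay near the lowest KO array, at the opposite end from WT replicate 3. The log2 fold change was -1.17 ± 0.72 (limma adjusted p = 0.524) and -0.46 without WT replicate 3, and the second probe of Mki67 gave -1.25 ± 0.72 (-0.53 without WT replicate 3).

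The sizes depended on how dim signals were treated. In the main processing the signal is background-subtracted, which spreads values near background on a log scale, and normexp with an offset of 50 compresses them. With normexp all 33 genes were smaller in size, with a median of -0.69 (all probes -0.10) and a range of -1.91 to -0.04. The count lower at an unadjusted p under 0.05 was 25 (8.69% of all probes). With normexp 8 genes were at -1 or less, a count made for the mitotic genes only. The authors' value table held 29 of the 33 probes, with a median of -0.67 (all probes -0.01), a range of -1.93 to -0.10 and 17 lower at an unadjusted p under 0.05 (6.68% of its probes). In both, limma called 0 mitotic genes at an adjusted p under 0.05 (0.0953% of all probes with normexp and 0.109% in the authors' table), with lowest adjusted p of 0.120 and 0.182. The order of the genes differed too: Top2a had the widest difference in the main processing (-2.57 ± 0.71), whereas with normexp and in the authors' table it was Birc5 (-1.91 and -1.93), followed by Spc25 (-1.35 and -1.39). Scaling altered the share of all probes on each side: 3.35% were lower and 9.87% higher at an unadjusted p under 0.05 with median centring, and 4.88% were lower and 6.66% higher with quantile normalization. Of the 33 mitotic genes, 20 were lower with median centring and 19 with quantile normalization, and 0 were higher with either. In the authors' table, which holds another set of probes and whose processing is unstated, 6.68% of probes were lower and 7.57% higher, and 0 of the 29 mitotic genes were higher. Median centring moved the median of all probes to 0.10, with 30 of the 33 genes below 0 and all 33 below that median.

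**Figure D3:**
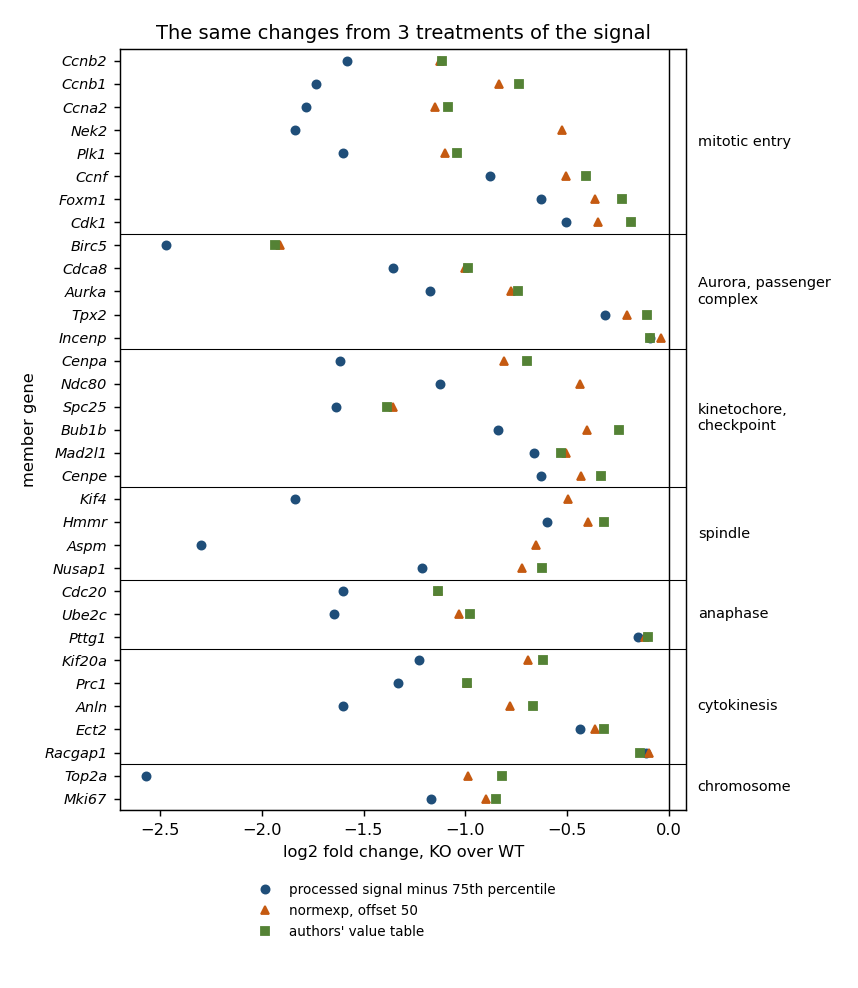
Log2 fold changes of KO over WT for each tested mitotic gene from the processed signal (circles), from normexp (triangles) and from the authors' value table (squares, 29 genes). The circles lie left of the triangles for all 33 genes, and Birc5 and Spc25 have the lowest triangles and squares.

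The 9 mitotic genes that were not tested were well above background on no KO array. For 4 of them, 2 of the 3 WT arrays measured the probe, and KO was lower by a bound that holds for the main processing. The checkpoint kinase gene Bub1 read -5.87, -6.49 and -5.84 on the KO arrays, against -4.51, -4.20 and -2.43 on the WT arrays, at least 2.61-fold lower in KO. Nuf2, a partner of Ndc80, was at least 3.53-fold lower by its brighter probe, the spindle motor gene Kif11 at least 2.37-fold and the midzone motor gene Kif23 at least 2.12-fold lower. In each the KO arrays lay below the WT arrays, and WT replicate 1 was the lowest WT array. Since not every WT array was well above background, part of this separation is between values too dim to measure. For Kif11, WT replicate 1 read -5.02 and KO replicate 1 read -5.03. The WT mean in each bound includes all 3 WT arrays. Ttk and Kif2c were above background on 1 WT array, and Aurkb, Cdc25c and Cenpf on none, so they give no fold. With no filter, all 42 genes had a log2 fold change below 0, with 27 lower at an unadjusted p under 0.05 (7.93% of 55681 probes). The median of all probes was then -0.17, with 39 of the 42 below it, and the share of all probes below 0 was not counted. For Aurkb, Cdc25c and Cenpf, which no array measured above background, the direction carries no information.

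Genes outside the list showed where the difference was found in the wider cell cycle. Of 65 other tested genes of mitosis, 30 were lower and 2 higher in KO at an unadjusted p under 0.05 (7.98% and 4.03% of all probes), with a median log2 fold change of -0.54. The 3 with the smallest p were Psrc1, a spindle protein gene, at -1.36 ± 0.35, Cdca3, a trigger of mitotic entry, at -2.07 ± 0.53, and Mis18a, which helps load Cenpa at centromeres, at -0.52 ± 0.14. The higher count is no larger than the share of all probes. Its 2 genes, named after their values were seen, were Wee1, the kinase that inhibits Cdk1 (0.43 ± 0.16), and the kinetochore gene Mis12 (0.41 ± 0.15). Of 38 DNA replication genes, 13 were lower and 0 higher, with a median of -0.39. Cdt1, which licenses replication origins, was at -1.02 ± 0.24, the thymidine kinase gene Tk1 at -1.82 ± 0.49 and Rfc5, a subunit of the clamp loader, at -0.47 ± 0.14. Limma called 0 genes of either list at an adjusted p under 0.05, with lowest adjusted p of 0.310 and 0.275. Without WT replicate 3 the medians were -0.37 for the mitotic and -0.23 for the replication genes. Then 18 mitotic genes were lower and 4 higher at an unadjusted p under 0.05, and 9 replication genes lower and 0 higher, where 8.9% of all probes were lower and 3.19% higher.

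Regulators of cell cycle transcription and core parts of the anaphase-promoting complex showed few differences, at or below the share of all probes. Of 19 genes of the E2F, pocket protein and MuvB families, which time the transcription of cell cycle genes, 1 was lower and 0 higher at an unadjusted p under 0.05 (7.98% and 4.03% of all probes). It was Lin9, a MuvB subunit, at -0.48 ± 0.14, followed by the repressor gene E2f8 at -1.51 ± 0.65 and E2f1 at -0.74 ± 0.37 (-0.75 and -0.36 without WT replicate 3). E2f8 was well above background on 2 KO arrays and all WT arrays. The median of this list was -0.14. Of 16 core subunits and cofactors of the anaphase-promoting complex, 0 were lower and 0 higher (limma, lowest adjusted p = 0.468), with a median of -0.04. The 3 with the smallest p were Anapc16 at 0.36 ± 0.19, Anapc10 at -0.27 ± 0.17 and Ube2s at -0.33 ± 0.23, with Anapc16 at 0.19 and Ube2s at -0.08 without WT replicate 3. These lists share no gene with the 42, and differences between lists were not tested. Markers of pituitary stem and folliculostellate cells had a median of -0.06 over 8 genes, and ranged from -0.33 to -0.05. At an unadjusted p under 0.05, 0 of the 8 were lower or higher by limma, and 1 was lower without WT replicate 3 (8.9% of all probes). Of the 5 lactotrope and somatotrope markers, 1 was lower and 1 higher at that threshold (7.98% and 4.03% of all probes). Without WT replicate 3, 0 were called in either direction (8.9% and 3.19% of all probes). With 5 genes, such counts are too small to read against those shares. The 2 genes, named after their values were seen, were the receptor genes Ghrhr (-0.38 ± 0.15) and Drd2 (0.33 ± 0.12).

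**Figure D4:**
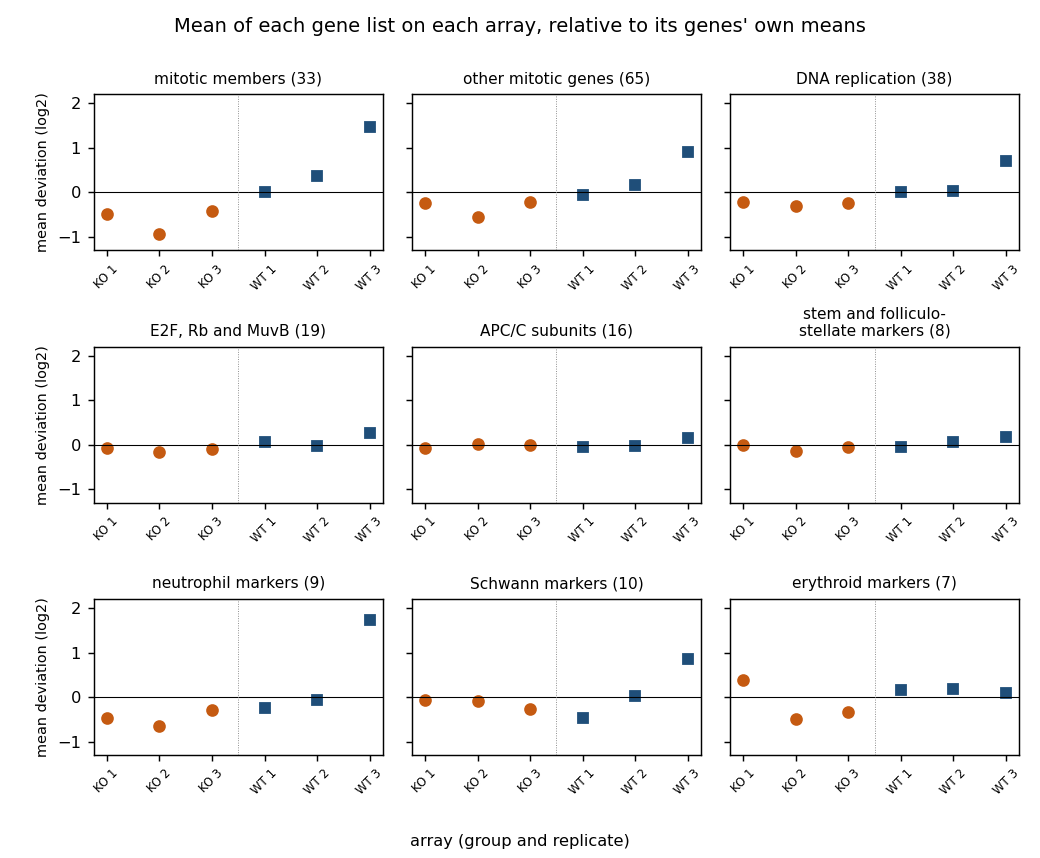
Points are the mean, over the tested genes of a list, of each gene's log2 value minus its own mean over the 6 arrays, with KO arrays as circles left of WT arrays as squares and the number of genes in brackets. The mitotic genes run from -0.93 on KO replicate 2 to 1.47 on WT replicate 3, the other mitotic and replication genes are also lowest on KO replicate 2 and highest on WT replicate 3, with smaller deviations, and the neutrophil and Schwann cell markers are also highest on WT replicate 3.

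In mammals many genes of late cell cycle share a promoter layout: a CHR element (core TTTGAA), bound by the MuvB complex in both its repressing and its activating form, downstream of CCAAT boxes bound by NF-Y. RefSeq windows of 250 bases before to 50 bases after the transcript start (GRCm38.p6) were at hand for 35 of the 42 genes, 37 windows in all, and 32851 windows for all genes. TTTGAA, searched on both strands (TTCAAA on the other), occurred in 28 of the 37 mitotic windows (75.7%), against 17.9% of all windows. CCAAT (or ATTGG) occurred in 29 of the 37 (78.4%), against 37.4% of all, and at least 2 copies in 56.8%, against 11.7%. Both motifs were present in 67.6% of mitotic windows and 6.95% of all windows, sharing a base in 1 mitotic window. Between 100 bases before and 30 bases after the start, TTTGAA lay in 62.2% of mitotic windows and 7.38% of all. An E2F-type match, TTCCCGC on either strand, was in 0 of the 37 and in 4.60% of all windows. Other forms of the E2F site were not searched. With a share that low, 0 of 37 windows does not show a lack of such sites. Other forms of the CHR element were not searched either. Since the layout is described for late cell cycle genes, its frequency in mitotic windows says nothing about KO. These matches describe letters in a window and do not show binding.

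The 5 windows below belong to the genes with the smallest p among those that hold the CHR core, and show how the motifs sit in genes that were lower together in KO. Each is written 5′ to 3′ on the strand of the gene, with matches to TTTGAA and CCAAT on either strand in capitals.
Kif4 promoter, chrX:100625815-100626114 (+ strand, GRCm38.p6): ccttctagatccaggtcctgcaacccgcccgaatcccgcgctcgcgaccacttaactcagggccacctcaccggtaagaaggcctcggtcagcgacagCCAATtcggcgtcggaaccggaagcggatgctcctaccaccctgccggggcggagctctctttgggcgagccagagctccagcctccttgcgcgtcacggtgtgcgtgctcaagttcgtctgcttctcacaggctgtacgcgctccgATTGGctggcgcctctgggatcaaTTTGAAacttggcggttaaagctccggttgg
Cenpa promoter, chr5:30666636-30666935 (+ strand, GRCm38.p6): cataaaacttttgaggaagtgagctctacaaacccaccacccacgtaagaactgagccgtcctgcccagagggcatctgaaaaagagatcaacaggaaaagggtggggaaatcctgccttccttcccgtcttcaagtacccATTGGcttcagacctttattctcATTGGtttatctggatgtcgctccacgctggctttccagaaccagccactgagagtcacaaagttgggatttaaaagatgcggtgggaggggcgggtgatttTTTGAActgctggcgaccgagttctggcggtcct
Hmmr promoter, chr11:40733388-40733687 (- strand, GRCm38.p6): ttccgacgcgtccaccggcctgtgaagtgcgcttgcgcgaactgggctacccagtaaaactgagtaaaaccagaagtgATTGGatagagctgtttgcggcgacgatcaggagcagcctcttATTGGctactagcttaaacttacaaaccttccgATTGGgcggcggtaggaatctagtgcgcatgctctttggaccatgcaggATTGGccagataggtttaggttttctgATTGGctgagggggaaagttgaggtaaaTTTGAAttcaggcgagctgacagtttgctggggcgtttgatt
Ccnb2 promoter, chr9:70421505-70421804 (- strand, GRCm38.p6): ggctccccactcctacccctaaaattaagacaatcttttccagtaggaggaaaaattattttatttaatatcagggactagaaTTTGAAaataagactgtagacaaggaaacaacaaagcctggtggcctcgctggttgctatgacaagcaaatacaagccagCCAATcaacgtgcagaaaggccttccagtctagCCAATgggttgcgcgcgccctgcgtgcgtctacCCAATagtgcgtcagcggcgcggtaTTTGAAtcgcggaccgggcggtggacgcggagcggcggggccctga
Ndc80 promoter, chr17:71526808-71527107 (- strand, GRCm38.p6): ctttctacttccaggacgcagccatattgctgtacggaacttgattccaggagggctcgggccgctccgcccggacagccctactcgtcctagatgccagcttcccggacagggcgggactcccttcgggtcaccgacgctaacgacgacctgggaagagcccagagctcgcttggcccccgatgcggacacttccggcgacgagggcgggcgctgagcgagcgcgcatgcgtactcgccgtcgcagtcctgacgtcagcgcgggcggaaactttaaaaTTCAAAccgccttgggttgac

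In 4 of these windows the CHR core nearest to the start lies 3′ of every CCAAT box, and the window of Ndc80 has a CHR core on the opposite strand and no CCAAT box. Over the 21 tested genes with TTTGAA in a window the median log2 fold change was -1.36 (from -2.57 to -0.11), and over the 7 without it -1.21 (from -2.47 to -0.15), a description with no test. Racgap1 held both motifs and was among the genes nearest to 0, while the window of Birc5 held neither.

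**Figure D5:**
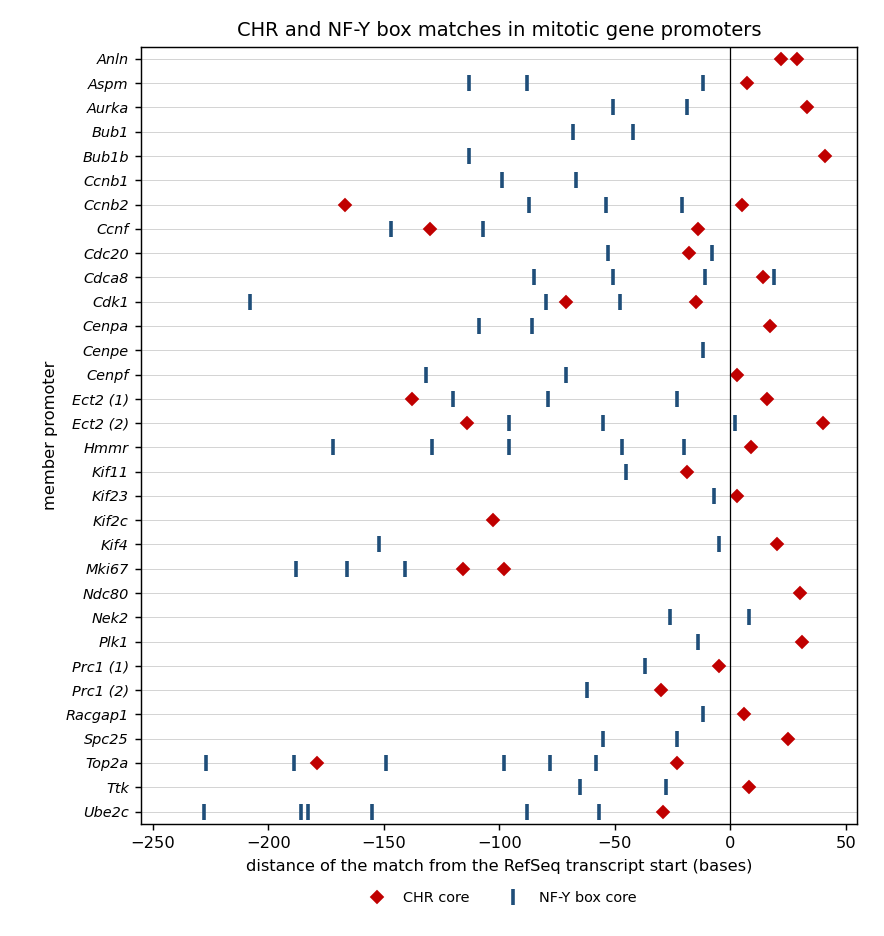
Positions of letter matches to the CHR core (diamonds) and to CCAAT, the core of the NF-Y box motif (bars), relative to the transcript start in the mitotic promoter windows that hold either motif. The last CHR core match mostly lies near or just after the start, with the CCAAT matches mainly upstream of it, and binding was not measured.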

How the data were processed

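Total RNA of whole pituitaries was measured on one-colour Agilent arrays of 3 KO and 3 WT females. Per the file headers, Feature Extraction 11.0.1.1 produced the deposited intensity values, and the processed signal used here is background-subtracted. The authors' value table was deposited on a log2 scale, with medians of 8.25 to 8.26 per array, with no statement of its background correction or normalization in the labels or headers. The submitters' processing notes name limma. Control spots and outlier-flagged spots were left out, spots of a probe were averaged, and log2 signal was taken relative to each array's 75th percentile. Probes that cleared background on 3 or more arrays were tested with limma 3.58.1 (R 4.3.3) on the 6 arrays without covariates, with Benjamini-Hochberg adjustment over all probes. The procedure was first run on simulated data with probes drawn independently, without array deviations shared between genes as seen here. A gene is its brightest tested probe. Values on every array are given for the 3 genes of smallest p and the gene nearest to no change in each role group, and up to 3 genes of smallest p are named from each other pathway list; marker genes are named only beside a result. Members and lists were chosen with earlier results of these data known. Promoters came from RefSeq. Alternatives were background correction, scaling, filters, probe summaries, variance models, blocks and leaving out arrays.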

Additional observations from a re-analysis of the deposited data

How the results depend on the processing

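By unadjusted p under 0.05 in limma, 22 mitotic genes were lower in KO (7.98% of all probes), and 12 within slide row 1 alone (7.7%), where fewer arrays enter. When each array was left out in turn, the count ran from 15 without KO replicate 2 (5.2% of all probes) to 25 without WT replicate 1 (7.74%). The share of all probes ran from 5% without KO replicate 3 to 10.9% without WT replicate 2. The median log2 fold change of the mitotic genes ran from -1.64 to -0.77, the value nearest to 0 being without WT replicate 3. Direction reversed in few genes. With median centring, Incenp was at 0.065, Pttg1 at 0.0075 and Racgap1 at 0.049. Leaving out single arrays moved Incenp between -0.30 (without WT replicate 1) and 0.19 (without WT replicate 3). In slide row 2 alone, an alternative chosen after seeing the data and without a test, Cdk1 was at 0.0098, Incenp at 0.041, Pttg1 at 0.011 and Tpx2 at 0.065. The causes were not tested. Limma called 0 mitotic genes at an adjusted p under 0.05 under every alternative with a test (lowest 0.120), while normexp, the authors' table, trended robust fitting, the filter on all 6 arrays and median centring called 35, 29, 30, 10 and 3 probes in all. Replicate numbers are shared between KO and WT, but same-numbered arrays did not deviate together (correlations of 0.14, -0.17 and -0.10). With the replicate block 23 genes were lower by that threshold, where 6.87% of all probes were. The 9 genes near background, and the compression of dim signals, limit what fold sizes can be read.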
